A study of Mus musculus with 6 samples.

Results

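Notch signalling between the cells of vessel walls was followed through 10 of the 32285 genes counted by single-cell RNA sequencing of mouse cortex. The genes were chosen by symbol from the deposited list of features. They comprised the receptors Notch1, Notch3 and Notch4, the ligands Jag1, Jag2 and Dll4, and the target and feedback genes Hey1, Heyl, Hes1 and Nrarp. All 10 symbols were found once, and each of the genes had UMIs in cells, from 928 of Heyl to 23286 of Hes1 over 17357 cells. A UMI is a molecular tag by which each captured RNA molecule is counted once.

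The brain cells came from male mice aged 8 to 12 weeks and heterozygous for RGS5::GFP, with 1 allele of the pericyte gene Rgs5 replaced by green fluorescent protein in all groups. The middle cerebral artery was permanently occluded, and cortex was taken 1, 12 or 24 h later from the stroke side (ipsi) or from the matching area of the other hemisphere (contra), which gave 6 groups with 1 library each. Mature neurons were depleted and live cells sorted, and there were fewer mice than groups. The contra groups came from brains with a stroke and were no unoperated control. The labels name a v3 kit with single indexes for 1 and 24 h and a v3.1 kit with dual indexes for 12 h, so that kit and time cannot be told apart. The study's methods differ from the labels in naming the later kit for all samples, and they give another sequencer for the latest time than for the others. In the deposited matrix the libraries carry only the numbers 1 to 6, which no source used here ties to a group. All values are therefore those of 1 pooled sample or of a numbered library, none is assigned to a hemisphere or a time, and with 1 library per group no test was possible.

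Notch receptors are cleaved when a ligand on a neighbouring cell binds them, and the freed intracellular part joins the DNA-binding protein Rbpj in the nucleus to switch on genes such as those of the Hes and Hey families. In arteries and capillaries the endothelium carries Dll4, Jag1 and Jag2, while Notch3 is the receptor typical of pericytes and smooth muscle cells, the mural cells that wrap the vessel. Dll4 is known from sprouting vessels, where it is made by the tip cells, and Nrarp is a feedback inhibitor that Notch itself induces.

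Upstream sequence is shown for 4 genes whose levels differed between the kinds of wall cell, so that the letters near their start can be read beside the values. RefSeq's promoter table for GRCm38.p6 held 7 of the 10 genes, and Hey1, Heyl and Hes1 were not among them. The 250 bases before the start are given 5′ to 3′ on the gene's own strand. Notch3 (chr17:32166891-32167140, minus strand) is a receptor found in mural cells, Dll4 (chr2:119325534-119325783, plus strand) an endothelial ligand, Nrarp (chr2:25180508-25180757, plus strand) a feedback gene, and Hey2 (chr10:30842784-30843033, minus strand) a further target from the wider pathway. Capitals mark a motif match.
Notch3: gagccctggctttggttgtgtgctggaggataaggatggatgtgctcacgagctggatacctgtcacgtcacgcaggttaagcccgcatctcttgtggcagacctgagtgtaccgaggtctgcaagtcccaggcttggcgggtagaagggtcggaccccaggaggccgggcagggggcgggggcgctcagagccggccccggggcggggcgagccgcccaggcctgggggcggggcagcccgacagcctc
Dll4: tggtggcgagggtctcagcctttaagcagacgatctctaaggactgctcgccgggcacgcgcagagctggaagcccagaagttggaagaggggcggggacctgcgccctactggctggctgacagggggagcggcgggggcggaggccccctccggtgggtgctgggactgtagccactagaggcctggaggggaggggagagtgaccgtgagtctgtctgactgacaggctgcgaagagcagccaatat
Nrarp: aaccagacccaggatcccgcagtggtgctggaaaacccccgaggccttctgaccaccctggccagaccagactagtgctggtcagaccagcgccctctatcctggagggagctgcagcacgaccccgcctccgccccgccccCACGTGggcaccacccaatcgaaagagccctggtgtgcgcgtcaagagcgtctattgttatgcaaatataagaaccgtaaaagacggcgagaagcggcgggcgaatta
Hey2: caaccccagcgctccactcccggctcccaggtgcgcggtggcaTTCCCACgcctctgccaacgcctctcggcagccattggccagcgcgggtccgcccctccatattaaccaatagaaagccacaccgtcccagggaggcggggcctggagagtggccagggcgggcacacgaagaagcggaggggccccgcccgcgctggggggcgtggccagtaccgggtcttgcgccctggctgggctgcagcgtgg
Both strands of these windows and of those of Notch1, Notch4, Jag1 and Jag2 were searched for TGGGAA, the core letters bound by Rbpj, for GTGGGAA, which contains it, and for CACGTG, an E-box of the kind bound by Hes and Hey proteins. In Nrarp the capitals are CACGTG, whose first base lies 108 bases before the start. In Hey2 they are GTGGGAA on the opposite strand, which is read as TTCCCAC here and begins 207 bases before the start. No match was found in the windows of Notch1, Notch3, Notch4, Jag1, Jag2 and Dll4. Over all 32851 promoters of the table, 21.6% held TGGGAA, 5.42% GTGGGAA and 6.02% CACGTG, so that a match is a description of letters only. The windows of Notch3, Dll4, Nrarp and Hey2 had 68.8%, 65.6%, 61.2% and 71.6% G and C, against a median of 52.4% over the table.

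Cell types were named from lists of standard markers, none of which is a Notch pathway gene, and the pathway genes took no part in the clustering. Names end in -like because they were rebuilt here. The vessel wall was represented by 2670 endothelial-like, 839 pericyte-like and 260 smooth muscle-like cells, and the latter 2 classes form the mural-like cells (1099 in all). All 8 markers of each list had UMIs in the class named for it. The same lists named the clusters, and markers of 1 wall class also had UMIs in the others, so this is no check of the names. Levels are in CPM, the UMIs of a gene summed over a class and scaled to the same total of UMIs in every class, with exact 95% Poisson intervals that cover counting error only. The reads are tags from the 3′ end, so a level is compared across classes for 1 gene and not between genes. The libraries held from 12427757 to 40793772 UMIs and from 1221 to 5873 cells, with median depths between 5053 and 5660.5 UMIs per cell. They shared 26 cell barcodes in all. The share of called doublets per library was 0.972% at the lowest and 2.95% at the highest.

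Across 14 named classes, each of the 10 genes was highest in a wall cell class except Nrarp. Pericyte-like cells led for Notch1, Notch3 and Heyl, smooth muscle-like cells for Jag1 and Hes1, and endothelial-like cells for Notch4, Jag2, Dll4 and Hey1. Nrarp reached 119 CPM (112–128) in astrocyte-like cells, 113 CPM (97.7–129) in smooth muscle-like cells and 100.4 CPM (89.6–112) in pericyte-like cells, and neighbours in this order did not differ beyond counting error.

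**Figure D1:**
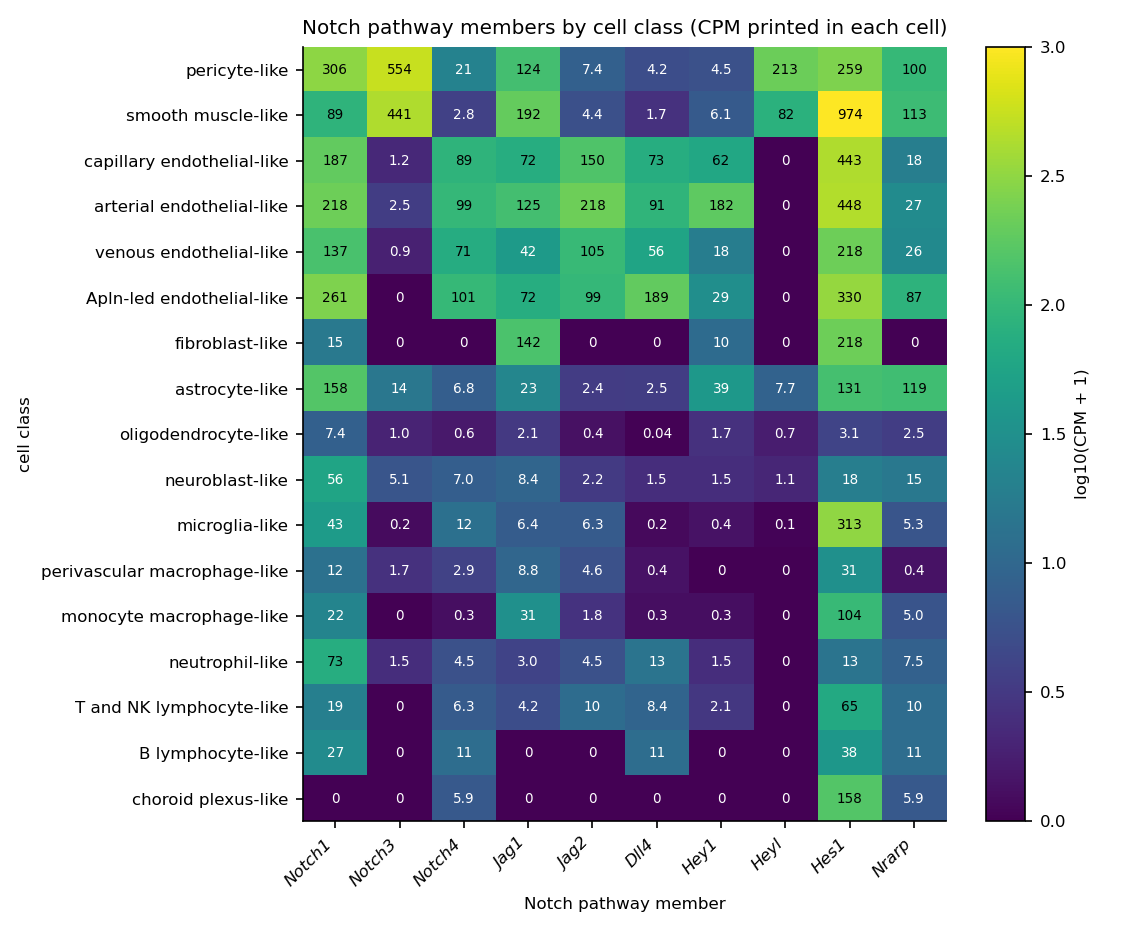
Level of the 10 Notch pathway genes (columns) in 17 cell groups (rows), with endothelial-like cells shown by subtype. Each field prints the CPM, and its colour gives log10(CPM + 1). Notch3 and Heyl fill the pericyte-like and smooth muscle-like rows (554 and 441 CPM of Notch3), whereas Jag2 and Dll4 fill the 4 endothelial-like rows.

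Among the receptors, Notch3 was the most selective. It is the mural receptor whose human gene is mutated in CADASIL, an inherited disease of small arteries. Notch3 (chr17:32120820-32166852, minus strand, mm10) reached 554 CPM (529–581) in pericyte-like cells, 441 CPM (411–472) in smooth muscle-like cells and 3.15 CPM (2.22–4.34) in endothelial-like cells. Over the 6 libraries its level in mural-like cells had a lowest value of 464, a median of 506 and a highest of 758 CPM, and in endothelial-like cells 0, 2.53 and 5.98 CPM. The 2 sets of library values did not overlap. In all cells the mural-like level was 163-fold the endothelial-like one (118–232). A Notch3 UMI was found in 78.1% of pericyte-like, 88.1% of smooth muscle-like and 1.27% of endothelial-like cells. Microglia, a cell type not known for this gene, gave a share of 0.102%. Median depths of these classes were 3330, 6688, 3991.5 and 5237 UMIs per cell. With each cell thinned to 1000 UMIs the shares were 41.1%, 38.5%, 0.225% and 0.0382%.

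Of the 37 Notch3 UMIs in endothelial-like cells, 22 were in a subcluster of 76 cells led by the pericyte genes Vtn and Rgs5. In the endothelial-like class as a whole the 8 pericyte markers, all detected, summed to 156 CPM, or 0.495% of their level in pericyte-like cells, and between 104 and 306 CPM over the libraries. Their part in the Notch3 level was not tested. Outside the wall, astrocyte-like cells had 14.3 CPM of Notch3 (11.7–17.4). Libraries 5 and 6 had 63.9 and 53.2 CPM, from 31 and 90 cells, and the other libraries between 6.71 and 11.1 CPM.

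Notch1, the broadly used receptor of endothelium and many other tissues, was shared by all wall cells. Notch1 (chr2:26457903-26516663, minus strand) had 306 CPM (287–326) in pericyte-like cells, 188 CPM (180–196) in endothelial-like cells and 158 CPM (149–167) in astrocyte-like cells. Smooth muscle-like cells came next, at 88.9 CPM (75.7–104), and all neighbours among these 4 classes differed beyond counting error. Pericyte-like cells were above endothelial-like cells in each of the 6 libraries, by ratios from 1.13 to 2.29, with 1.63 (1.505–1.75) in all cells, but the interval excluded an even level only in libraries 3 and 5. For mural-like cells as a whole the picture was less even. Their make-up differed between libraries, with 7 smooth muscle-like and 81 pericyte-like cells in library 1 and 66 and 83 in library 5. The part of this make-up in the mural-like library levels, here and for the other genes, was not tested. The lowest, median and highest library levels were 124, 212 and 323 CPM in mural-like cells and 147, 203 and 233 CPM in endothelial-like cells, so that the ranges overlapped. The pooled ratio of endothelial-like to mural-like cells was 0.833 (0.774–0.896), endothelial-like cells were the higher class in 2 of 6 libraries, and without library 3 the log2 ratio went from -0.26 to -0.04.

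Notch4, a receptor known mainly from endothelium, was the counterpart of Notch3. Notch4 (chr17:34564268-34588503, plus strand) reached 86.9 CPM (81.7–92.4) in endothelial-like cells, 20.6 CPM (15.9–26.3) in pericyte-like cells. Smooth muscle-like cells had 2.76 CPM, from 5 UMIs. Its library levels in endothelial-like cells ran from 62.2 over a median of 89.2 to 110 CPM, and in mural-like cells from 3.55 over 14.5 to 18.1 CPM, with no overlap. The ratio of endothelial-like to mural-like cells was 6.196 (4.85–8.03). In mural-like cells 6 of its 69 UMIs lay in a subcluster of 33 cells that carried endothelial markers. Microglia-like cells had 11.6 CPM, and barcodes with 1 to 50 UMIs, which hold free RNA, had 8.79 CPM. A Notch4 UMI was found in 28.6% of endothelial-like, 6.67% of pericyte-like and 5.97% of microglia-like cells. With each cell thinned to 1000 UMIs the shares were 9.10%, 2.74% and 1.11%. The pericyte-like level was 1.77-fold the microglia-like one (1.34–2.30).

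Among the ligands, Jag2 and Dll4 were endothelial. Jag2 (chr12:112907819-112929776, minus strand) had 146 CPM (139–153) in endothelial-like cells and 6.30 CPM (4.28–8.95) in mural-like cells, a ratio of 23.2 (16.3–34.2). Library levels in endothelial-like cells were 121 at the lowest, 144 at the median and 266 CPM at the highest, and in mural-like cells 0, 7.07 and 9.38 CPM. Every library had the endothelial-like class far above the mural-like one. For Dll4 (chr2:119325784-119335962, plus strand), the ligand of tip cells and arteries, the levels were 83.8 CPM (78.6–89.2) and 3.25 CPM (1.86–5.28), a ratio of 25.8 (15.8–45.2). The endothelial-like level of Dll4 varied more between libraries than that of Jag2, with 34.3 CPM in library 1, a median of 79.4 and 130 CPM in library 4, a ratio of 3.80 (2.41–6.34) between the highest and the lowest. The make-up of the class differed between these libraries. In library 4, 162 of its 444 cells belonged to a subtype led by Apln, described further on, and held 145 of its 241 Dll4 UMIs, and library 1 had 0 such cells. Within capillary endothelial-like cells Dll4 ran from 41.6 CPM in library 1 to 95.7 CPM in library 3, a ratio of 2.30 (1.39–4.05). The part of the make-up in the spread between libraries was not tested.

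The few UMIs of both ligands in mural-like cells were concentrated in the subcluster of 33 cells with endothelial markers, of which 48.5% were called doublets. It held 22 of the 31 Jag2 UMIs and 13 of the 16 Dll4 UMIs. All 8 endothelial markers were detected in mural-like cells, where they summed to 548 CPM, or 2.77% of their level in endothelial-like cells, and to between 337 and 802 CPM over the libraries. With mural-like cells restricted to their own named subclusters, an alternative chosen after the data had been seen, the log2 ratio of endothelial-like to mural-like cells went from 4.53 to 6.505 for Jag2 and from 4.69 to 6.93 for Dll4. In endothelial-like cells a UMI was found in 41.5% of cells for Jag2 and 25.9% for Dll4. In microglia-like cells the shares were 3.22% and 0.115%. Their Jag2 level lay between 4.34 and 7.65 CPM over the libraries, and its source was not tested.

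Jag1, the ligand that mural cells and endothelium both make, had the opposite order. Jag1 (chr2:137081456-137116644, minus strand) had 192 CPM (173–214) in smooth muscle-like cells, 142 CPM (94.1–205) in 31 fibroblast-like cells and 124 CPM (112–137) in pericyte-like cells. Endothelial-like cells had less, 77.5 CPM (72.5–82.7). Fibroblast-like cells, with 28 UMIs, did not differ from either neighbour beyond counting error. Library levels in mural-like cells were 105, 162 and 175 CPM at the lowest, the median and the highest, and in endothelial-like cells 45, 83.6 and 112 CPM. The ranges overlapped, but within each of the 6 libraries mural-like cells were the higher class, in library 1 within counting error. In all cells they were higher by 1.93-fold (1.75–2.13). This value lies just short of a 2-fold difference. Jag1 passed it without library 3, without library 4 and with mural-like cells named by subcluster. In microglia-like cells Jag1 was 12.7 CPM in library 4 and 16.1 CPM in library 6, and between 0 and 0.857 CPM in the other libraries.

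**Figure D2:**
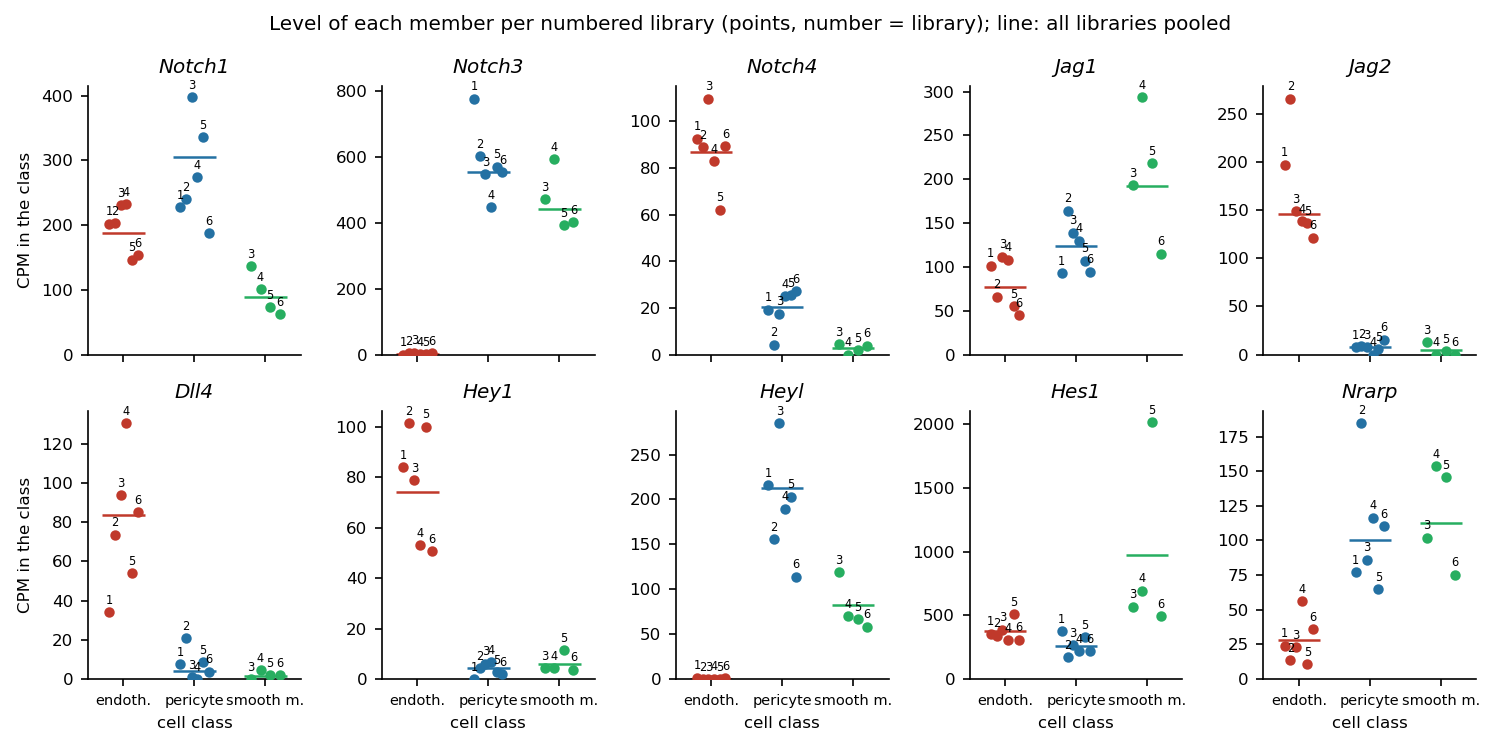
Level in CPM of each gene in endothelial-like (red), pericyte-like (blue) and smooth muscle-like (green) cells of each numbered library with at least 20 such cells. Points are libraries, labelled with their number, and lines give the level of all libraries pooled. Notch3 and Heyl are separated without overlap between endothelial-like and mural-like points, as are Jag2 and Dll4 in the other direction, whereas Notch1 overlaps, and Hes1 in smooth muscle-like cells of library 5 stands at 2015 CPM.

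The Hey family targets divided the wall along the same line. Hey1, a transcriptional repressor of arterial endothelium (chr3:8663359-8667256, minus strand), had 74.1 CPM (69.2–79.2) in endothelial-like cells, 38.7 CPM (34.3–43.6) in astrocyte-like cells and 5.08 CPM (3.29–7.504) in mural-like cells. Its library levels in endothelial-like cells were 50.6, 81.4 and 101 CPM at the lowest, the median and the highest, against 0, 4.59 and 7.99 CPM in mural-like cells. Hey1 was thus 14.6-fold higher (9.80–22.6) in endothelial-like cells, and higher in 6 of 6 libraries. Only 3 of its 25 mural-like UMIs lay in the subcluster with endothelial markers. Heyl, the family member of mural cells (chr4:123233556-123249875, plus strand), was 387-fold higher (165–1196) in mural-like cells, with 165 CPM (154–177) against 0.426 CPM (0.138–0.993). Library levels of Heyl in mural-like cells were 85.9, 151 and 237 CPM. In endothelial-like cells they went from 0 to 1.72 CPM, from 5 UMIs in all, and these 5 lay in the subcluster led by Vtn and Rgs5. The arterial, capillary, venous and Apln-led endothelial-like subtypes had no Heyl UMI.

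Nrarp, the feedback inhibitor (chr2:25180758-25183339, plus strand), was 3.72-fold higher (3.24–4.29) in mural-like than in endothelial-like cells, with 105 CPM (96.1–114) against 28.2 CPM (25.2–31.4). Library levels were 84.6, 103 and 163 CPM in mural-like cells and 10.7, 23.4 and 56.3 CPM in endothelial-like cells, without overlap. The highest endothelial-like level was that of library 4, where Apln-led cells held 67 of 104 UMIs and capillary cells had 32.8 CPM. In library 6 Apln-led cells held 34 of 109 UMIs. The part of this make-up in the spread of Nrarp was not tested. Hes1, a target with many other inducers (chr16:30064384-30067796, plus strand), was present in most classes. It had 974 CPM (929–1021) in smooth muscle-like, 379 CPM (368–390) in endothelial-like, 313 CPM (307–318) in microglia-like and 259 CPM (242–278) in pericyte-like cells, whereas free RNA had 119 CPM. Endothelial-like cells had more Hes1 than mural-like cells in 3 of 6 libraries and less in the other 3, and the pooled ratio of 0.725 (0.691–0.762) rested on library 5, since the log2 ratio without it was -0.04 against -0.46.

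Set against all genes, the counts of these differences were as follows. A gene was called when the ratio of CPM reached 2-fold, among genes with at least 30 UMIs in both classes together. Between endothelial-like and mural-like cells 4 of the 10 members were called higher (Notch4, Jag2, Dll4 and Hey1) and 3 lower (Notch3, Heyl and Nrarp), while 14.6% and 18.8% of the 11946 genes with enough UMIs were called higher and lower. The median log2 ratio was -0.36 over the members and -0.10 over all those genes. No test was made, since the members were picked with results of these data known.

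Within the mural wall some of the members differed between pericytes and smooth muscle cells. Of 8 members with enough UMIs, 3 were called lower in smooth muscle-like cells (Notch1, Notch4 and Heyl) and 1 higher (Hes1), against 14.7% and 8.32% of 9932 genes. Dll4 and Hey1 had under 30 UMIs and gave no call. Smooth muscle-like values by library are given for libraries 3 to 6 only, with 69, 40, 66 and 71 cells, because libraries 1 and 2 had 7 cells each. Notch1 was 137, 101, 72.8 and 62.2 CPM in smooth muscle-like cells of libraries 3 to 6 and 398, 275, 336 and 187 CPM in pericyte-like cells, lower in 4 of 4. Over all cells its ratio was 0.291 (0.245–0.344). Heyl was 119, 70.2, 67.0 and 58.4 CPM against 285, 190, 203 and 114 CPM in the same libraries, and its pooled ratio was 0.386 (0.321–0.462). With the mean over libraries, in which libraries 1 and 2 count as much as the others, Heyl lost its call, with a log2 ratio of -0.67 instead of -1.37.

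Notch4 had 5 UMIs in smooth muscle-like and 64 in pericyte-like cells, a ratio of 0.134 (0.0421–0.330). With at most 5% mitochondrial counts its log2 ratio was -1.27 instead of -2.90, which kept the call. Notch3 itself was nearly even, at a ratio of 0.795 (0.730–0.865), with 471, 592, 393 and 402 CPM in smooth muscle-like and 547, 448, 570 and 553 CPM in pericyte-like cells of libraries 3 to 6. In library 4 smooth muscle-like cells were the higher class. Jag1 was higher in smooth muscle-like cells in 4 of 4 libraries, in library 6 within counting error. Its pooled ratio of 1.55 (1.33–1.79) did not reach the 2-fold limit. For Nrarp the pooled ratio of 1.12 (0.936–1.34), and for Jag2 that of 0.597 (0.231–1.38), did not leave counting error, and the intervals allow ratios up to the given bounds in either direction. The libraries went both ways for Nrarp, which was higher in smooth muscle-like cells in 3 of 4. Its ratio was 2.24 (1.39–3.75) in library 5 and 0.685 (0.445–1.04) in library 6.

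Hes1 was the member with the highest ratio of smooth muscle-like to pericyte-like cells, at 3.76 (3.45–4.09). Its levels in smooth muscle-like cells of libraries 3 to 6 were 568, 693, 2015 and 492 CPM, and in pericyte-like cells 268, 221, 327 and 220 CPM. The ranges did not overlap, and library 5 stood apart. Without library 5 the log2 ratio was 1.14 instead of 1.91, which kept the call. Immediate early genes, which cells switch on within minutes of a stimulus, were higher in smooth muscle-like cells too. All 8 of the list (Fos, Fosb, Jun, Junb, Egr1, Atf3, Ier2 and Dusp1) were called higher in smooth muscle-like cells, with a median log2 ratio of 3.06. Their summed level was 12052, 13021, 19426 and 13124 CPM in smooth muscle-like cells of libraries 3 to 6, again highest in library 5. Library 6, the lowest of these for Hes1, was not the lowest for the sum. In pericyte-like cells of libraries 1 to 6 the sum was 1204, 4799, 641, 1804, 1507 and 5250 CPM, and there the library with the highest sum, library 6, had 220 CPM of Hes1, while library 1 had the highest Hes1 level, 374 CPM. The part of these genes in the Hes1 difference was not tested.

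**Figure D3:**
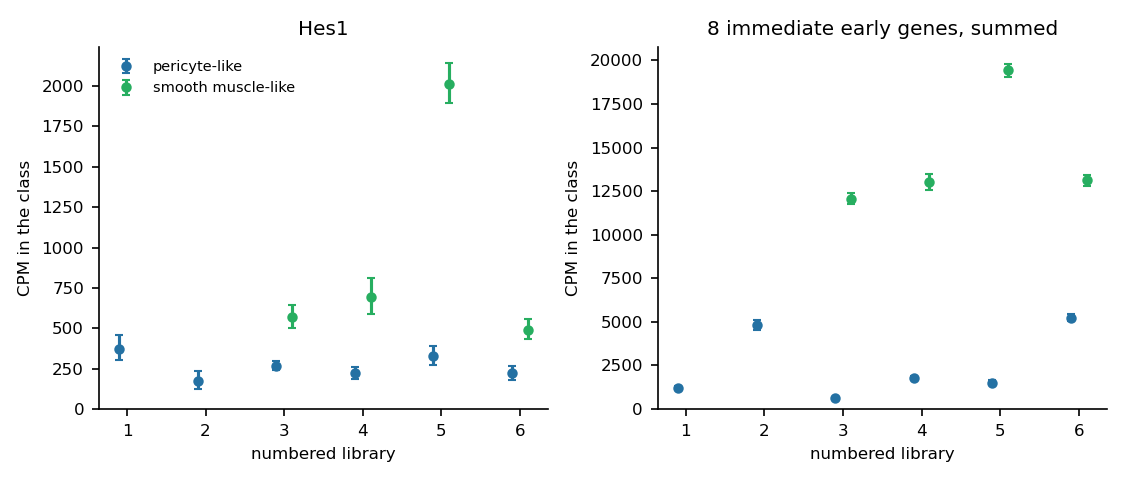
Level in CPM of Hes1 (left) and of 8 immediate early genes summed (right) in pericyte-like (blue) and smooth muscle-like (green) cells of each numbered library. Error bars are exact 95% Poisson intervals. Among libraries 3 to 6, those with at least 20 smooth muscle-like cells, library 5 is the highest in these cells for both, 2015 and 19426 CPM. In pericyte-like cells the highest libraries differ, library 1 for Hes1 and library 6 for the sum.

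A small group of pericyte-like cells differed from the rest in its receptors. It was a mural subcluster of 53 cells, 21 from library 4 and 32 from library 6, led by the cytokine gene Il11 with Saa3, Ccl7 and Ccl11. It is compared here with 790 other mural-like cells, those of the other subclusters named as pericytes. These include some cells counted as smooth muscle-like above. In library 3, for example, they number 338, where the pericyte-like class has 337. Notch1 was 72.3 CPM in these response cells and 329 CPM in the others, a ratio of 0.220 (0.135–0.338), with 0.111 within library 4 and 0.387 within library 6. Notch3 was 275 against 622 CPM, a ratio of 0.442 (0.349–0.554), with 0.342 and 0.398 within the same libraries. Heyl was 75.7 against 232 CPM, a ratio of 0.327 (0.203–0.4995), with 0.299 (0.117–0.639) in library 4 and 0.555 (0.287–1.02) in library 6. All 3 were lower in both libraries, for Heyl in library 6 within counting error. Hey2, the other Hey gene of mural cells, had 7 UMIs there and a ratio of 0.179 (0.0716–0.374), and Notch2, with 4 UMIs, one of 0.310 (0.0832–0.815). The 8 pericyte markers, all detected, moved the same way, with a summed level of 10529 CPM in the response cells and 34220 CPM in the others, and their part in these ratios was not tested. Jag1 had a ratio of 0.622 (0.397–0.933). Nrarp, at 1.05 (0.698–1.52), did not differ beyond counting error, and Hes1, at 0.684 (0.510–0.900), went opposite ways in the 2 libraries, 0.333 in library 4 and 1.98 in library 6. Libraries 4 and 6 also held 125 and 83 of the 790 comparison cells, with which the ratios within a library were formed. Because the subcluster was drawn from only 2 libraries, cell state and library cannot be fully told apart.

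**Figure D4:**
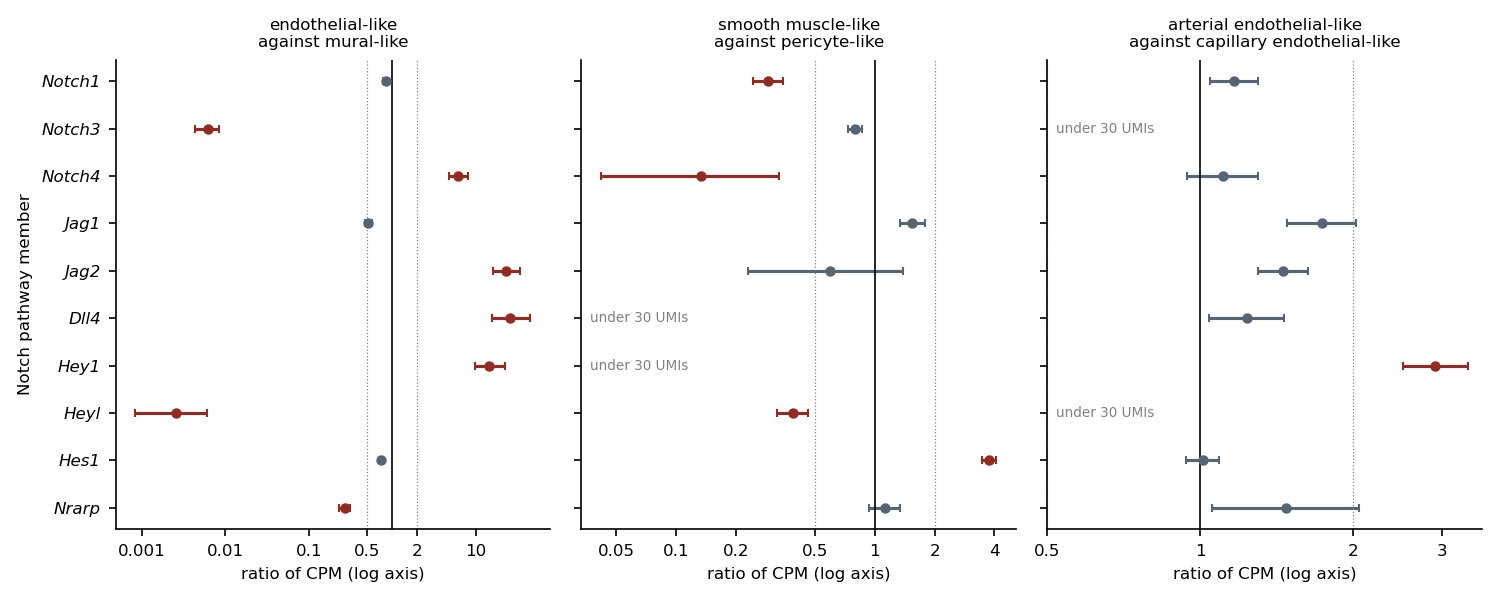
Ratio of CPM of the 10 genes in 3 comparisons, on log axes, with exact 95% intervals of counting error. Dotted lines mark a 2-fold difference and red points lie past it. Genes under 30 UMIs are marked as such and not drawn. Notch3 and Heyl lie farthest to the mural side (163-fold and 387-fold) and Dll4 and Jag2 farthest to the endothelial side.

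Along the vessel tree, endothelial-like cells were clustered again and named from arterial, capillary and venous markers. This gave 492 arterial, 1378 capillary and 414 venous endothelial-like cells, and 265 cells in 2 subclusters, both led by Apln and with Angpt2 among the leading genes, that are called Apln-led. By the marker lists alone both of these subclusters scored best as venous, with scores of 1.43 and 1.26. The subtypes were unevenly spread, since library 6 held 298 of the venous cells, and libraries 4 and 6 held 162 and 94 of the Apln-led cells. Of the venous cells, 296 formed a subcluster led by Lrg1 and Ackr1, with 275 of them from library 6. The other 118 formed one led by Lcn2 and Lrg1. Dll4 was 77.3 CPM (63.9–92.7) in the former and 14.1 CPM (7.02–25.2) in the latter. Pooled venous values thus rest mostly on library 6 and join unlike subclusters. Haemoglobin genes were among the leading genes of an arterial subcluster of 175 cells and a venous one of 296. The 5 erythrocyte markers summed to 651 CPM in arterial, 61.8 CPM in capillary, 537 CPM in venous and 31.9 CPM in Apln-led cells, and to 4958 CPM in arterial cells of library 6. In the whole endothelial-like class they ran from 50.3 to 22542 CPM over the libraries, against 59.0 CPM in mural-like cells. Of their 119623 UMIs in that class, arterial cells held 1560, capillary cells 311, venous cells 1226 and Apln-led cells 39. Haemoglobin genes also led an unnamed endothelial-like subcluster of 16 cells. The part of the erythrocyte markers in the results was not tested. Of 8 members with enough UMIs, 1 was called higher in arterial than in capillary endothelial-like cells and 0 lower, while 3.08% and 2.72% of 9839 genes were. The median log2 ratio was 0.43 over these members and 0.00 over all genes.

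The called gene was Hey1. Its levels in arterial cells of libraries 1, 3, 4, 5 and 6, those with at least 20 such cells, were 193, 166, 133, 209 and 194 CPM, and in capillary cells 61.2, 44.7, 42.2, 83.8 and 66.1 CPM. The ranges did not overlap, and the pooled ratio was 2.91 (2.51–3.38). Venous cells had 17.5 CPM of Hey1 (12.5–23.9), and the ratio of arterial to venous cells was 10.4 (7.49–14.7) in all cells, 23.5 (8.99–87.4) within library 5 and 8.31 (5.39–12.98) within library 6. In all cells pooled, the Jagged ligands followed the same order with smaller steps. Jag1 was 161, 141, 181, 86.3 and 97.0 CPM in arterial and 78.4, 88.2, 100.1, 49.4 and 50.05 CPM in capillary cells of these libraries, higher in 5 of 5, with a pooled ratio of 1.74 (1.49–2.03), and 42.5 CPM in venous cells. Jag2 was also higher in 5 of 5 libraries, in library 6 within counting error. Its pooled levels were 218 against 150 CPM, a ratio of 1.46 (1.30–1.63), and it had 105 CPM in venous cells. In libraries 4, 5 and 6, those with at least 20 venous cells, venous Jag1 was 39.0, 42.3 and 34.4 CPM. Venous Jag2 was 78.0, 105 and 110 CPM there, against 138, 125 and 154 CPM in capillary cells. Each venous value lay below the capillary one of its library. The separate intervals of venous and capillary levels overlapped, which does not show the levels to be even.

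The receptors differed less between arterial and capillary cells. Notch1 had a ratio of 1.17 (1.05–1.30) and was higher in 4 of 5 libraries, beyond counting error only in library 3. Notch4 had one of 1.11 (0.944–1.30), which includes no difference. Dll4 had 90.6 against 73.3 CPM, a ratio of 1.24 (1.04–1.47), and was higher in 4 of 5 libraries, beyond counting error only in library 4. Hes1 was even, at 448 and 443 CPM, a ratio of 1.01 (0.940–1.09), but the libraries went both ways, with 0.585 (0.459–0.741) in library 6 against 1.17 (1.03–1.34) in library 3 and 1.14 (1.01–1.28) in library 5. Venous cells had 218 CPM of Hes1, and the ratio of arterial to venous cells was 2.06 (1.85–2.29) in all cells, 2.37 (1.33–4.601) within library 4, 3.07 (2.46–3.87) within library 5 and 1.35 (1.06–1.69) within library 6. Nrarp was higher in arterial cells in 5 of 5 libraries, each within counting error, with 64 and 91 UMIs in all and a pooled ratio of 1.48 (1.06–2.06). When cells were kept by the study's filters only, its log2 ratio was 1.46 instead of 0.56 and it was called. Notch3 had 6 UMIs in either subtype and gave no call.

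Apln-led cells had the highest Dll4 and Nrarp of the endothelial-like subtypes, and less Hey1 than arterial and capillary cells. Venous cells had still less Hey1 over all libraries pooled. Within library 6 the levels were 23.3 CPM (16.3–32.3) in venous and 28.1 CPM (15.3–47.1) in Apln-led cells. In library 4, 22 venous cells had 0 CPM (0–35.9) against 32.5 CPM (20.4–49.2), so that the intervals overlapped in both. Apln and Angpt2 are known from the tips of sprouting vessels. Dll4 reached 189 CPM (166–215) in them, 2.58-fold its level in capillary cells (2.18–3.05), and the ratio was 2.98 within library 4 and 2.23 within library 6. Nrarp reached 86.8 CPM (71.1–105), a ratio of 4.80 (3.60–6.43) in all cells and of 3.02 and 2.84 within the 2 libraries. Both thus held within each library that had at least 20 such cells. Hey1 was 29.5 CPM, a ratio of 0.473 (0.325–0.669) to capillary cells, which was 0.770 (0.418–1.40) within library 4 and 0.425 (0.210–0.816) within library 6, and of 0.162 (0.112–0.228) to arterial cells. Notch1 was 1.39-fold its capillary level (1.22–1.58), and Jag2 had a ratio of 0.663 (0.542–0.804), which was 0.903 (0.661–1.23) within library 4 and 0.455 (0.296–0.687) within library 6. Lfng, a sugar transferase that alters which ligands Notch answers to, had 4 UMIs in Apln-led cells and a ratio of 0.194 (0.0517–0.515). The summed level of the 8 endothelial markers was also lower in Apln-led cells, 13184 CPM against 22431 CPM in capillary cells. The 6 astrocyte markers, all detected in both, summed to 565 CPM in Apln-led and 150.0 CPM in capillary cells, and Nrarp is a gene of astrocyte-like cells too. The part of these markers in the ratios was not tested.

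**Figure D5:**
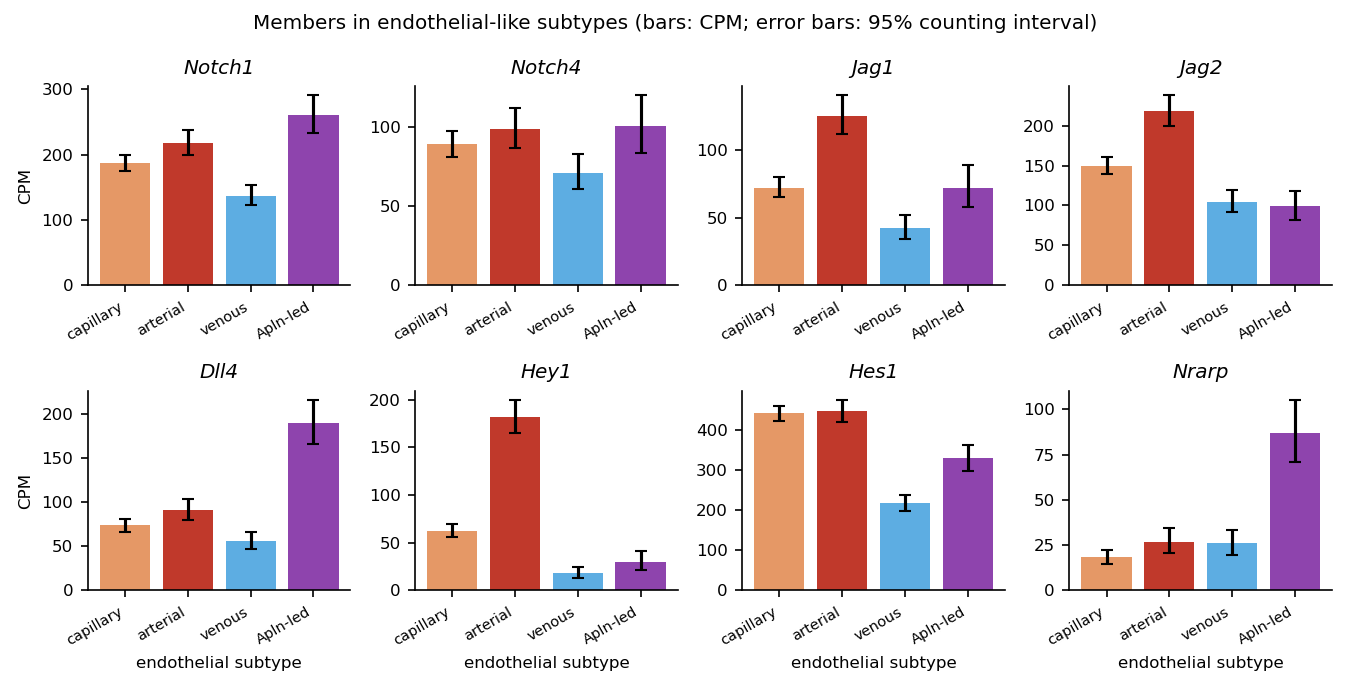
Level in CPM of 8 genes in capillary, arterial, venous and Apln-led endothelial-like cells of all libraries. Bars start at 0 and error bars are exact 95% Poisson intervals. Hey1 peaks in arterial cells (182 CPM), and Dll4 and Nrarp peak in Apln-led cells (189 and 86.8 CPM).

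The wider pathway, 48 further genes listed by role, was compared in the same way. Between endothelial-like and mural-like cells 39 had enough UMIs, of which 6 were called higher and 9 lower, beside 14.6% and 18.8% of all genes. Among receptors and ligands Egfl7, a secreted endothelial protein, was 32.3-fold higher (27.8–37.9) and Dll1 2.63-fold higher (1.18–6.93) in endothelial-like cells, and Notch2 was 4.55-fold higher (3.67–5.68) in mural-like cells. The fringe enzymes Lfng and Mfng were 18.0-fold (6.91–66.8) and 14.96-fold higher (10.4–22.4) in endothelial-like cells, whereas Dtx3, Dtx4, Numbl and Neurl1b, which act on receptor or ligand trafficking, were higher in mural-like cells, Dtx4 by 53.1-fold (26.4–125). In the cleavage machinery Adam10 and Psen2 were called higher in endothelial-like cells and Aph1b and Aph1c in mural-like cells, and of the 10 genes of the nuclear complex only Maml3 was called, higher in mural-like cells. Rbpj was not called.

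Among the other targets Hey2 was 85.1-fold higher (51.9–150) in mural-like cells, with 116 CPM against 1.36 CPM. Hey2 and Heyl were thus the mural Hey genes and Hey1 the endothelial one. Between smooth muscle-like and pericyte-like cells 36 of the 48 genes had enough UMIs. Of these, 2 were called higher (Notch2 at 2.02 and Neurl1b at 4.55) and 5 lower (Itch, Dtx3, Dtx4, Ncstn and Aph1b). The shares over all genes were 8.32% and 14.7%. Between arterial and capillary endothelial-like cells 34 had enough UMIs and 0 were called in either direction, beside 3.08% and 2.72% of all genes.

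Outside the wall, astrocyte-like cells held several of the genes. They had 119 CPM of Nrarp, 4.24-fold the endothelial-like level (3.73–4.82), 158 CPM of Notch1 and 38.7 CPM of Hey1, the latter 7.62-fold the mural-like level (5.05–12.0). From the wider lists they had 216 CPM of Lfng, 190 CPM of Hes5 and 97.4 CPM of Notch2. Hes5, a target best known from neural stem cells and astrocytes, had 1 UMI in endothelial-like cells. Oligodendrocyte-like cells had little of any member, with 0.0408 CPM of Dll4 from 1 UMI and between 0.367 and 7.42 CPM of the other 9 members.

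For each member the 3 genes with the most similar profile were looked up among 5209 genes with at least 100 CPM in 1 class, by Pearson's r of log2(CPM + 10) over the 14 classes, which share libraries and depth. Heyl came closest to Cox4i2 (r = 0.998), Cspg4 and Notch3, and Notch3 to Gucy1a1 (0.993), Heyl and Aspn. Jag2 was nearest to Sox17 (0.982), Degs2 and Tek, Dll4 to Icam2 (0.977), Cyyr1 and Sox18, and Hey1 to Ccdc85a (0.976), Nebl and Aqp11. Notch1 (Snrk, Pcdh1, Fry), Notch4 (Rnf144b, Slc30a1, Mecom), Jag1 (Rras, Lamb2, Kank2), Hes1 (Ssbp4, Luzp1, Hspb1) and Nrarp (Cap2, Pcdh1, Mfge8) had looser nearest profiles, with a best r between 0.861 and 0.952. Notch3 and Heyl were the only members among each other's 3 nearest genes.

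Some members overlap other annotated genes, most of them on the opposite strand, and whether any reads are shared was not tested. In the GENCODE annotation of the same build, Notch3 and Nrarp each overlap an antisense gene. Notch4 overlaps a processed pseudogene and Dll4 a transcript, both of the other strand. Jag2 overlaps a microRNA gene of its own strand. Of the 3 non-coding genes that overlap Notch1, only the microRNA gene Mir6996 lies on its own strand. Jag1, Hey1, Heyl and Hes1 overlap none.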

How the data were processed

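Single-cell 3′ libraries were sequenced by the authors, and the deposited values are UMI counts, not normalised, in 1 unfiltered matrix of 32285 genes. Per the labels and file headers, they were made with Cell Ranger 5.0.1 on mm10, and the study's methods state that libraries were aggregated to equalise depth, which can remove reads from deeper libraries. No column of per-sample values was left unused (0). Barcodes were called cells in each library above 0.1 of the 99th percentile of the top 3000 barcodes, with at least 200 genes and at most 10% mitochondrial UMIs. Cells were clustered with leidenalg 0.10.2 (2000 variable genes without pathway genes, 30 components, 20 neighbours, resolution 0.8, seed 1) under Python 3.11.15, which gave 30 clusters, and 508 cells stayed unnamed. Doublets were called in each library with the Scrublet function of scanpy 1.11.5. Called doublets were kept in the main values and removed in an alternative. Endothelial-like and mural-like cells were clustered again into 14 and 10 subclusters.

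UMIs were summed per class and scaled to CPM. Ratios have exact conditional Poisson intervals and shares exact binomial (Clopper-Pearson) ones, at 95%, computed with scipy 1.17.1. The scripts were tested on simulated data. No test was made, because the libraries are tied to no group and a class of cells is no set of replicates. Values by library are given for at least 20 cells. The genes named are the 10 members, other pathway genes past 2-fold with at least 30 UMIs, and the 3 genes most like each member. Members and lists were chosen with earlier results of these data known. Rules for naming clusters (the baseline, the merging of T and NK lymphocytes, the subtype limits and the Apln-led name) were set after the data had been seen, as was the alternative that names mural-like cells by subcluster. Names were rebuilt here and may differ from the study's. Alternatives changed the cell call, the mitochondrial limit, doublets, the resolution, the UMI minimum, pooling over libraries and the libraries included.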

Additional observations from a re-analysis of the deposited data

How the results depend on the processing

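The counts of members called between endothelial-like and mural-like and between smooth muscle-like and pericyte-like cells stayed within 1.5 times under every alternative run. Without each library in turn, the members called higher and lower were 4 to 4 and 3 to 4 in the former comparison, 1 to 1 and 3 to 3 in the latter, and 1 to 1 and 0 to 0 between arterial and capillary endothelial-like cells. There, 2 members instead of 1 were called higher when cells were kept by the study's filters only (Hey1 and Nrarp), with at most 5% mitochondrial counts (Jag1 and Hey1) and with genes of at least 10 UMIs (Notch3 and Hey1), the last because more genes were eligible, and otherwise the cause was not tested. The log2 ratio of Nrarp went from 0.56 to 1.46 under the study's filters. Removing doublets took the log2 ratio of endothelial-like to mural-like cells from 4.53 to 5.504 for Jag2 and from 4.69 to 5.62 for Dll4, and for Heyl it was -7.86 without library 3 and -9.67 without library 6, against -8.60. Notch4 between smooth muscle-like and pericyte-like cells went from -2.90 to -1.27 with at most 5% mitochondrial counts. Jag2, from 31 UMIs, was called lower in smooth muscle-like cells at resolution 0.4 (-1.37) and with the mean of the libraries (-1.42), against -0.74, and the sign of its uncalled ratio changed with doublets removed (0.97) and with the mean over cells (0.42). Of the log2 ratios, 26, 25 and 19 moved beyond their counting interval in the 3 comparisons and 134, 135 and 116 did not. No paired analysis was possible because the study's groups could not be compared, the numbered libraries being tied to none; cell classes were set side by side within each library, with no test. The number of cells limited the rare classes: libraries 1 and 2 held 7 smooth muscle-like cells each.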
